A study of Mus musculus with 6 samples.

Results

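Genes of the neuronal cytoskeleton were examined in whole-transcriptome RNA sequencing of brain tissue from wild-type (WT) mice. They are 37 genes named by symbol, all found as rows of the count table, which holds 22584 Ensembl genes. The set has 9 tubulins, 4 stathmins, 4 neurofilament genes, 6 microtubule-associated proteins, 6 motors, 2 giant linkers, 2 ankyrins, 2 spectrins and 2 cytoplasmic actins. RNA in 3 libraries came from the AllPrep DNA/RNA/Protein Mini Kit, which takes DNA, RNA and protein from the same lysate. RNA in the other 3 libraries, labelled Ctrl, came from TRIzol, a phenol reagent after which RNA is precipitated with alcohol. Genotype and tissue are labelled the same in both groups, and the labels used here give no age, sex or brain region. Nor do they say whether each library is its own animal, so the spread behind the p-values is that of these libraries and may be technical. The comparison asks how the measured transcriptome differs between libraries from the kit and from conventional extraction. Choroid plexus markers summed to 587 to 1181 CPM (counts scaled to the library total) in AllPrep and 13.9 to 19.3 CPM in TRIzol. All 7 oligodendrocyte markers were lower in AllPrep without overlap, against 20.6% of all genes tested, but none was called changed by the tests given below. The 8 neuron markers went both ways. Whether both groups hold the same parts of the brain was not tested. The comparison does not separate extraction from what was sampled.

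Microtubules are hollow polymers of alpha- and beta-tubulin that run along axons and dendrites. Microtubule-associated proteins bind and space them, stathmins bind free tubulin and favour disassembly, and kinesin and dynein motors carry cargo along them. Neurofilaments set the calibre of large axons, and spectrin, ankyrin and actin form the skeleton under the membrane, with ankyrins holding ion channels in place. The proteins range widely in size. Stathmin 1 has 149 codons in the reference annotation, and the linker dystonin 7717 in its longest complete coding sequence.

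Several members have close relatives in the genome, and the tubulins show how close. The last 60 coding bases, stop codon included, of the beta-tubulin pair Tubb2a and Tubb2b are given to show how little sequence separates some members. They come from GENCODE vM21, are in the last coding exon and read 5′ to 3′ on the coding strand. Capitals mark the 3 bases at which the members of the pair differ, all at the last position of a codon, with 0 differences in the encoded residues.
Tubb2a: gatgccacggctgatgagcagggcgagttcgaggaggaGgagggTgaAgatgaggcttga
Tubb2b: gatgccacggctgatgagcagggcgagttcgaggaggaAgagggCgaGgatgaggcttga
In build GRCm38 both are on the minus strand. Tubb2a is at chr13:34074468-34074527 and Tubb2b at chr13:34127471-34127530. Over the whole coding region Tuba1a and Tuba1b were 98.3% identical, with 23 differing bases of 1356. Tubb2a and Tubb2b were 96.5% identical, with 47 differing bases of 1338, and the actins Actb and Actg1 were 88.7% identical. Of all 100-base windows in its transcript, Tuba1b shared 73.0% with other annotated genes and Tuba1a 65.9%, most often with Tuba1c. The share was 51.1% for Actg1, 46.7% for Tuba4a (with the neighbouring Stk16), 36.9% for Tubb2a, 30.7% for Nefl (with an annotated Nefm transcript), 30.6% for Tubb4b, 27.8% for Tubb2b and 26.1% for Stmn1. It was 11.4% or less for each other member. How reads that fit several genes were counted is not given in the sources used here, so the split between such genes is uncertain.

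Map1b and several giant linker and anchoring genes were higher in AllPrep than in TRIzol libraries, and no member was called lower. Levels are CPM, each gene's count scaled to the total of its library. Fold changes are AllPrep over TRIzol from edgeR's quasi-likelihood test with TMM normalization. TMM applies a single scaling factor to each library and does not correct for differences in the cells or tissue sampled. A gene was called where its p, adjusted over all genes tested by the Benjamini-Hochberg method, was below 0.05. Of the 37 members, 4 rose: the microtubule-associated protein Map1b, the linkers Dst and Macf1, and the ankyrin Ank3. That is 10.8% of members, against 2.52% of the 16325 genes tested that were called higher. The members were chosen with results of these data known, so the 2 shares are a description. All 4 genes have longest annotated transcripts over 8 kb. Of all tested genes of 8 to 16 kb 15.9% were called higher, and the share was larger among longer genes. No member fell, against 1.28% of all genes called lower. At an unadjusted p below 0.05 there were 12 higher and 5 lower members, against 13.4% of all genes higher and 12.4% lower. DESeq2 called 9 higher and 4 lower, against 8.13% and 5.23% of all genes in that test. The median log2 fold change was 0.05 over the members and -0.01 over all genes. In 12 members each AllPrep library was above each TRIzol library, against 13.4% of all genes, and in 7 each was below, against 20.6%. With scaling to library size alone the 4 calls stood and Stmn3 and Stmn4 were called lower, against 2.13% of all genes called higher and 1.92% lower. With 5 libraries few genes of any kind passed. Without AllPrep replicate 1, 2 or 3 or TRIzol replicate 2 no member passed, in fits that called 2 to 28 of all genes, against 621 with 6 libraries. Without TRIzol replicate 1 or 3 Map1b alone passed, in fits that called 147 and 205 genes. All 37 passed the filter on low counts, with at least 2507 counts in each library.

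**Figure D1:**
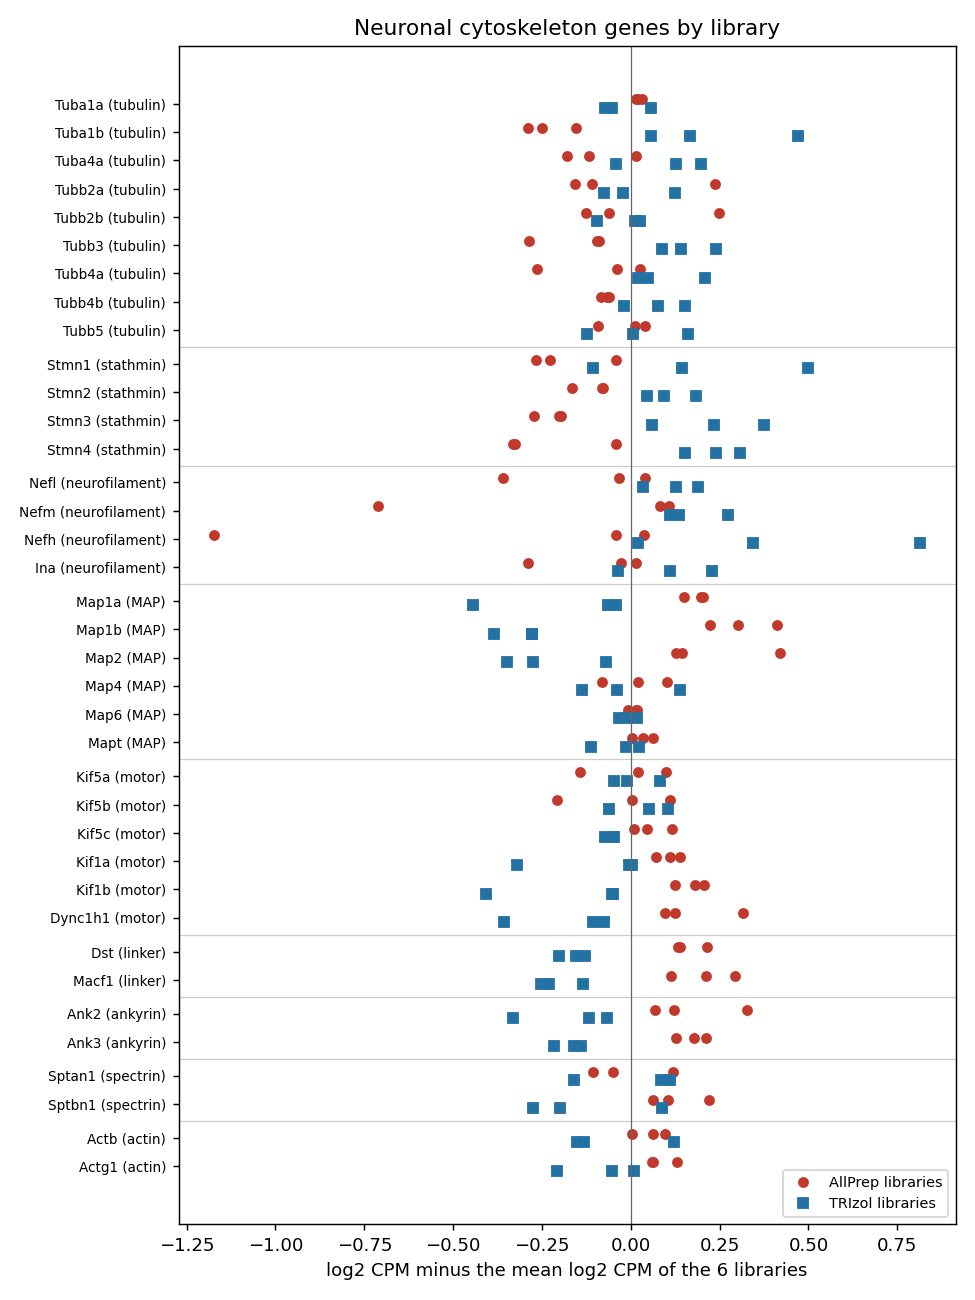
Level of each of the 37 members in each library, as log2 CPM minus the gene's mean log2 CPM over the 6 libraries (x axis), with genes grouped by class down the page. Circles are the 3 AllPrep and squares the 3 TRIzol libraries. Linkers and ankyrins lie right of zero in AllPrep and left of it in TRIzol, stathmins lie mostly the other way round, and a single AllPrep library lies far left for Nefm and Nefh.

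The giant linkers join microtubules, actin and intermediate filaments. Macf1, a spectraplakin that couples microtubules to actin, had 619, 578 and 656 CPM in the 3 AllPrep libraries, against 487, 449 and 456 CPM in TRIzol. The groups did not overlap, and the 1.36-fold difference passed (log2 fold change 0.45 ± 0.08 SE, edgeR adjusted p = 0.035). Dst, which encodes dystonin, had 608, 575 and 577 CPM in AllPrep and 456, 480 and 471 CPM in TRIzol. It too was higher in each AllPrep library (log2 fold change 0.36 ± 0.07 SE, edgeR adjusted p = 0.038). When a library was left out, the log2 fold change stayed between 0.34 and 0.37 for Dst and between 0.40 and 0.49 for Macf1. The adjusted p was then 0.072 to 0.12 for Dst and 0.052 to 0.10 for Macf1, so neither passed in any of the 6 fits.

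Ankyrins tie membrane proteins to spectrin. Ank3, ankyrin-G, which organises the axon initial segment and nodes of Ranvier, had 631, 615 and 594 CPM in AllPrep, against 468, 487 and 494 CPM in TRIzol. The groups did not overlap, and it passed at a log2 fold change of 0.38 (SE 0.07, edgeR adjusted p = 0.035). When a library was left out it no longer passed, with log2 fold changes of 0.36 to 0.40 and adjusted p of 0.065 to 0.12. Ank2, ankyrin-B, had 920, 954 and 1100.1 CPM in AllPrep and 697, 838 and 808 CPM in TRIzol. Its groups did not overlap either, and its log2 fold change of 0.38 had a larger SE of 0.11 and missed the threshold (edgeR adjusted p = 0.083).

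Among the motors, the kinesin-3 genes and dynein were higher in each AllPrep library, but none of the 6 motors passed in edgeR. At an unadjusted p below 0.05 there were 3, all higher, against 13.4% of all genes higher. DESeq2 called 2 higher, against 8.13% of all genes in that test. Dync1h1, the heavy chain of the dynein that moves cargo back to the cell body, had 960.1, 942 and 1096 CPM in AllPrep, against 688, 818 and 836 CPM in TRIzol (log2 fold change 0.39 ± 0.11 SE, edgeR adjusted p = 0.074). Kif1b, a kinesin that carries mitochondria and vesicle precursors, had 1202, 1249.9 and 1273 CPM in AllPrep, against 833, 1066 and 1063 CPM in TRIzol. TRIzol replicate 1 was the lowest. Kif1a, the kinesin of synaptic vesicle precursors, averaged 1879.8 ± 45.3 CPM in AllPrep and 1629 ± 199.5 CPM in TRIzol (SD, n = 3 each). The kinesin-1 heavy chains, which carry cargo outward along axons, showed smaller values. Kif5a, the most abundant member in counts, had 3328, 3512 and 2969 CPM in AllPrep and 3470.1, 3257 and 3176 CPM in TRIzol (log2 fold change 0.02, SE 0.10). Those values overlap widely. Kif5c had log2 fold change 0.15 without overlap between the groups, and Kif5b, the form found in all cell types, -0.02 with overlap. Within the kinesin-1 genes, Kif5a made up 68.7% to 70.4% of counts in AllPrep and 69.9% to 72.2% in TRIzol libraries.

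Of the 6 microtubule-associated proteins, Map1b alone passed in edgeR, against 2.52% of all genes called higher. All 6 had positive values (median log2 fold change 0.25). At an unadjusted p below 0.05 there were 3, all higher, against 13.4% of all genes higher. DESeq2 called 3 higher, Map1a, Map1b and Map2, against 8.13% of all genes in that test. Map1b, a protein of growing axons, had 1806, 1710.1 and 1948 CPM in AllPrep, against 1122, 1208 and 1208 CPM in TRIzol. The lowest AllPrep library was well above the highest TRIzol library, and the 1.58-fold difference was the largest increase among the members (log2 fold change 0.66 ± 0.08 SE, edgeR adjusted p = 0.020). Without 1 library its log2 fold change was 0.61 to 0.70, with adjusted p of 0.044 to 0.078. Map2, the main microtubule-associated protein of dendrites, had 1516, 1499 and 1835 CPM in AllPrep and 1078, 1307 and 1134 CPM in TRIzol. It did not overlap and missed the threshold (log2 fold change 0.50 ± 0.12 SE, edgeR adjusted p = 0.059). Map1a, the related protein of mature neurons, was the most abundant of this class in counts. It had 2009, 2084 and 2074 CPM in AllPrep, against 1329.5, 1733 and 1758 CPM in TRIzol (log2 fold change 0.39, edgeR adjusted p = 0.095). The AllPrep values lay close together, and TRIzol replicate 1 was far below the other TRIzol libraries. Mapt, which encodes tau of the axon, Map4, which is widely expressed, and Map6, which stabilises cold-resistant microtubules, had log2 fold changes of 0.10, 0.06 and 0.05 with overlapping values. The spread of Map6 was small, with 147 ± 1.35 CPM in AllPrep and 146 ± 2.60 CPM in TRIzol (SD, n = 3 each).

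Spectrins and actins had positive values and none of the 4 passed in edgeR, with 1 of each class at an unadjusted p below 0.05 and 0 in DESeq2. Of all genes, 13.4% were higher at that unadjusted level, and DESeq2 called 8.13% higher. Sptan1, the alpha-spectrin of brain, had 1286, 1337 and 1504 CPM in AllPrep and 1240.2, 1468 and 1496 CPM in TRIzol (log2 fold change 0.01, SE 0.11). Its partner Sptbn1, a beta-spectrin, averaged 1280.0 ± 74.2 CPM in AllPrep and 1076 ± 147 CPM in TRIzol, with a log2 fold change of 0.29 (edgeR adjusted p = 0.16). Actb, beta-actin, often used as a reference gene, had 772, 804 and 823 CPM in AllPrep and 838, 693 and 702 CPM in TRIzol. TRIzol replicate 1 was above and the other TRIzol libraries below all AllPrep libraries (log2 fold change 0.14 ± 0.10 SE, edgeR adjusted p = 0.42). Actg1, gamma-actin, averaged 586 ± 16.3 CPM in AllPrep and 523 ± 40.0 CPM in TRIzol (log2 fold change 0.20, edgeR adjusted p = 0.19).

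The tubulins, whose products build the microtubule itself, were not called in edgeR in either direction. Of the 9 genes, 2 were at an unadjusted p below 0.05, both lower, and DESeq2 called the same number lower. Of all genes, 12.4% were lower at that unadjusted level, and DESeq2 called 5.23% lower. The median log2 fold change was -0.11, with 4 positive and 5 negative values. The alpha-tubulin pair Tuba1a and Tuba1b had unlike values, and this difference was not tested. Tuba1b, found in many cell types, had 219, 199.7 and 206 CPM in AllPrep, against 338, 274 and 254 CPM in TRIzol. Every AllPrep library was below every TRIzol library, TRIzol replicate 1 was the highest, and the difference missed the threshold (log2 fold change -0.44 ± 0.11 SE, edgeR adjusted p = 0.070, 0.0091 in DESeq2). Without TRIzol replicate 1 the log2 fold change was -0.30. Tuba1a, the main alpha-tubulin of developing neurons, had 551, 544 and 547 CPM in AllPrep and 560.0, 513 and 519 CPM in TRIzol, with overlap (log2 fold change 0.08, SE 0.07). The Tuba1a count was thus 2.51, 2.72 and 2.66 times that of Tuba1b in AllPrep, against 1.65, 1.87 and 2.04 times in TRIzol. Tuba4a, an alpha-tubulin of mature axons, averaged 402 ± 27.8 CPM in AllPrep and 459 ± 38.3 CPM in TRIzol, with overlap.

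Among the 6 beta-tubulins, Tubb3, the neuron-specific isotype, had 339.6, 338 and 296 CPM in AllPrep, against 399, 426 and 384 CPM in TRIzol. Its groups did not overlap (log2 fold change -0.28 ± 0.08 SE, edgeR adjusted p = 0.094). Tubb4b, which is also used in motile cilia, was lower in each AllPrep library by a small margin, with 243, 246 and 247 CPM against 287, 272 and 255 CPM in TRIzol. Tubb4a, a brain isotype that oligodendrocytes also express strongly and the most abundant tubulin in counts, had 762, 795 and 652 CPM in AllPrep and 903, 792 and 808 CPM in TRIzol. These groups overlapped, with AllPrep replicate 3 lowest (log2 fold change -0.15, SE 0.10). Tubb2a and Tubb2b, isotypes of the nervous system, had log2 fold changes of 0.03 and 0.08, and both were highest in AllPrep replicate 3. Tubb5 had 0.003. As a share of beta-tubulin counts, Tubb3 made up 13.9% ± 1.09 in AllPrep and 15.8% ± 0.846 in TRIzol (SD, n = 3 each), and Tubb4b 10.5% in AllPrep and 10.6% in TRIzol.

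Stathmins had the lowest median of the classes, at -0.38, and all 4 values were negative. None passed in edgeR, while 3 were lower at an unadjusted p below 0.05, against 12.4% of all genes. DESeq2 called 2 lower, against 5.23% of all genes in that test. Stmn3, a neuronal stathmin bound to Golgi membranes, had 274, 288 and 287 CPM in AllPrep, against 428, 388 and 344 CPM in TRIzol. The groups did not overlap, and the AllPrep values lay closer together (log2 fold change -0.42 ± 0.10 SE, edgeR adjusted p = 0.058). Stmn4, the brain-restricted form also called RB3, had 157, 191 and 156 CPM in AllPrep and 243, 232 and 219 CPM in TRIzol (log2 fold change -0.42 ± 0.10 SE, edgeR adjusted p = 0.063). It too had no overlap. Stmn2, which axons need for growth and maintenance, averaged 330.0 ± 11.1 CPM in AllPrep and 383 ± 18.7 CPM in TRIzol without overlap (log2 fold change -0.18, edgeR adjusted p = 0.18). Stmn1, the founding member, was the most abundant stathmin in counts, with 346, 403 and 355 CPM in AllPrep against 587, 459 and 386 CPM in TRIzol. AllPrep replicate 2 was above TRIzol replicate 3, and TRIzol replicate 1 stood far above the rest (log2 fold change -0.34 ± 0.16 SE, edgeR adjusted p = 0.22). Without TRIzol replicate 1 it was -0.16.

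Neurofilament genes had negative values in AllPrep, and 1 AllPrep library lay far below the rest. None of the 4 passed in edgeR, at an unadjusted p below 0.05 or in DESeq2. Nefh, the heavy subunit of large myelinated axons, had 114, 108 and 49.2 CPM in AllPrep, against 113, 141 and 195 CPM in TRIzol. AllPrep replicates 1 and 2 were level with TRIzol replicate 1, and AllPrep replicate 3 was far below all others (log2 fold change -0.70 ± 0.32 SE, edgeR adjusted p = 0.22). Nefm, the middle subunit, had 246, 242 and 139.8 CPM in AllPrep and 251, 247 and 277 CPM in TRIzol, so that AllPrep replicate 3 alone stood clear of the rest. Nefl, the light subunit on which the filament is built, had 397, 378 and 301 CPM in AllPrep and 422, 396 and 441 CPM in TRIzol. Ina, alpha-internexin, had 246, 238 and 199 CPM in AllPrep and 262, 237 and 285 CPM in TRIzol. Without AllPrep replicate 3 the log2 fold change of Nefh was -0.40 and that of Nefm -0.05. In the same library the 7 listed oligodendrocyte markers, genes of the cells that make myelin, summed to 3214 CPM, against 5297 and 5643 CPM in the other AllPrep libraries and 6040 to 7088 CPM in TRIzol. Of these 7, 5 were lower at an unadjusted p below 0.05, against 12.4% of all genes. None of the 7 passed in edgeR or DESeq2, and none was at 0 counts. Their part in the neurofilament values was not tested. In bulk tissue, fewer cells of a type and less RNA per cell cannot be told apart.

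**Figure D2:**
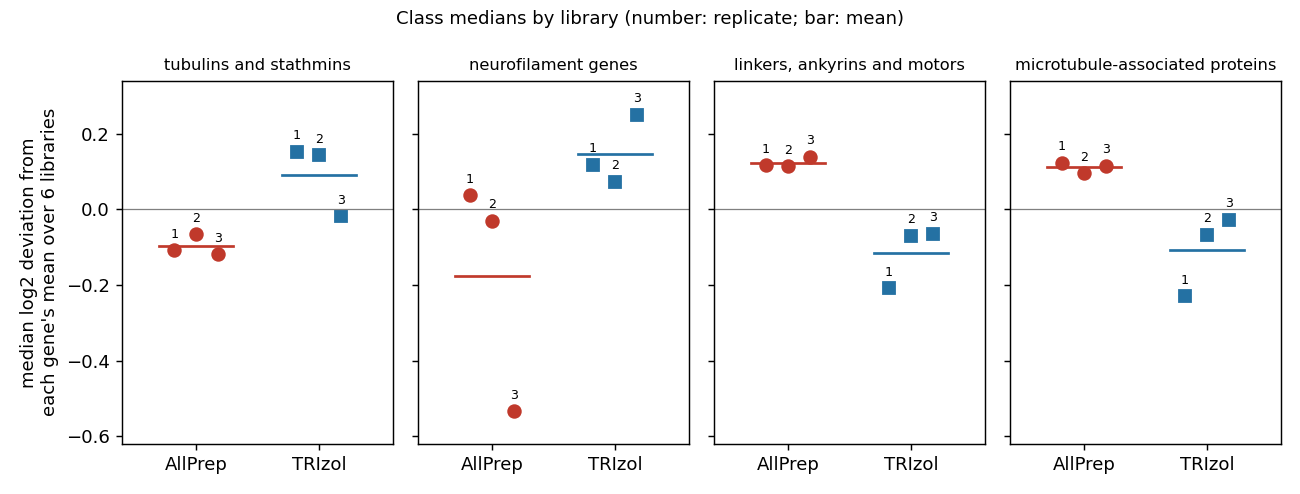
Median over the members of a class of the log2 deviation from each gene's mean over the 6 libraries (y axis), by library, with the replicate number above each point and a bar at the group mean. Circles are AllPrep and squares TRIzol libraries. For the linkers, ankyrins and motors the AllPrep libraries lie at 0.11 to 0.14 and the TRIzol libraries at -0.21 to -0.06, and for neurofilament genes AllPrep replicate 3 lies at -0.53.

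The short tubulins and stathmins were set against the giant linkers, ankyrins and motors. The median log2 fold change was -0.15 for the 13 tubulins and stathmins, with 4 positive values, and 0.36 for the 10 linkers, ankyrins and motors, with 9 positive values. The difference of the medians was -0.52, and was -0.52 with each of the 3 scalings run. Within each library, the median deviation of the short class minus that of the giant class was -0.23, -0.18 and -0.26 in AllPrep, against 0.36, 0.21 and 0.05 in TRIzol. The AllPrep libraries were close to each other, and TRIzol replicate 3 was the nearest to them. Summed, the short class took 4552, 4754 and 4625 CPM in AllPrep, against 5661, 5328 and 4929.9 CPM in TRIzol. The giant class took 11600.2, 11737 and 11539 CPM in AllPrep, against 9837, 10495 and 10421 CPM in TRIzol. That class is named loosely, since its members Kif5a, Kif5b and Kif5c have longest transcripts of 4 to 8 kb. Kif5a alone averaged 3269 CPM in AllPrep and 3301 CPM in TRIzol. Map1a, Map1b and the spectrins, at 8 to 16 kb, are outside the class. The 37 members together took 2.77% to 2.83% of all counts in AllPrep and 2.49% to 2.60% in TRIzol. Since classes and members were chosen with results of these data known, no p is given for these values. In a check chosen after seeing the data, using only the 6 tubulins and stathmins and the linkers, ankyrins and motors that share at most 20% of windows with another gene gave a difference of -0.59.

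Longer members tended to have higher fold changes. Over the 37 members, log2 fold change correlated with the log2 length of the longest annotated transcript (Pearson r = 0.73, Spearman rho = 0.74). Over 16219 tested genes with a known length the same values were 0.20 and 0.31. These are descriptions across genes that share the same 6 libraries, and genes are not independent replicates. The members were also chosen with results of these data known, and they join very short to very long genes. Their higher correlation therefore cannot be read as particular to them. For GC content r was -0.47 over the members and 0.01 over all genes. Among members under 2 kb (10 genes, among them Tuba1b, Stmn3 and Actb), the median log2 fold change was -0.19, against -0.13 for all genes of that length. For 2 to 4 kb it was -0.17 for 9 members and -0.04 for all genes. For 4 to 8 kb it was 0.06 for 7 members and 0.07 for all genes. For 8 to 16 kb it was 0.38 for 9 members and 0.28 for all 882 genes, of which 15.9% were called higher and 2 of the 9 members, Map1b and Ank3. Dst and Macf1 are 2 of only 43 tested genes of 16 kb or more, whose median was 0.45 and of which 30.2% were called higher. Against the quartiles of all tested genes in the same length range, 25 members lay within, 5 above and 7 below. Those above were Map2, Map1b, Tuba1a, Actb and Actg1. Those below were Tuba1b, Stmn1, Stmn3, Stmn4, Nefm, Nefh and Sptan1.

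**Figure D3:**
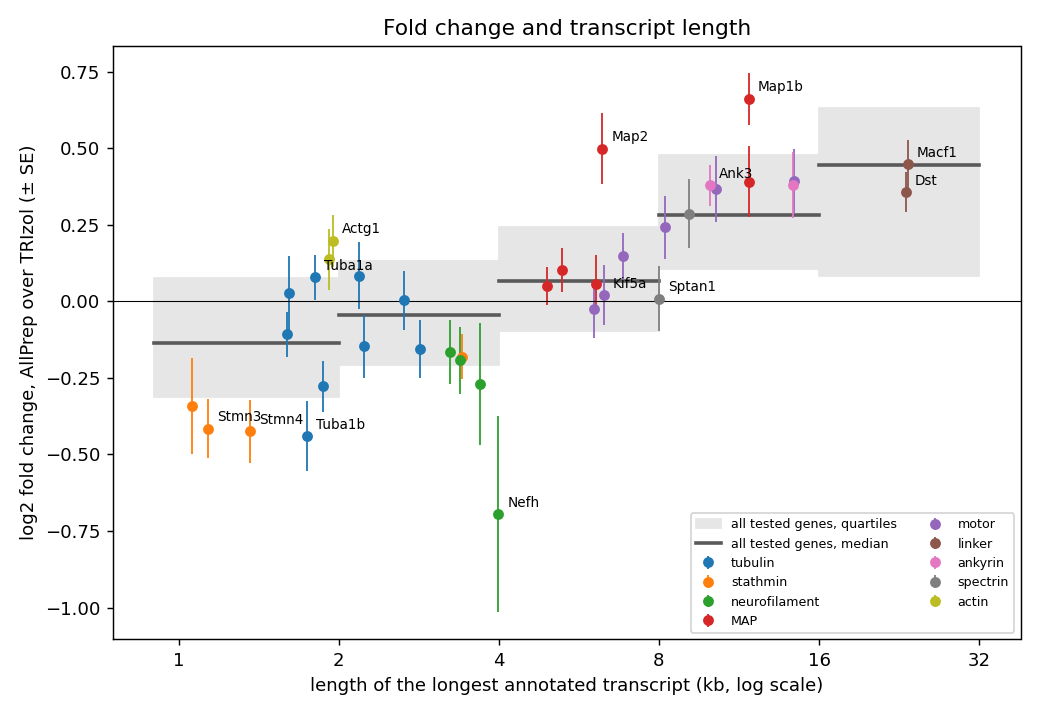
Log2 fold change of each member, AllPrep over TRIzol, with its SE (y axis) against the length of its longest annotated transcript in kb on a log scale (x axis), coloured by class. Grey bars give the median and grey bands the quartiles of all tested genes in 5 length ranges. The members climb from stathmins and Tuba1b near -0.4 to Macf1 at 0.45, with Map1b at 0.66 above and Nefh at -0.70 below the others.

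When smooth trends of each library on transcript length and GC content were removed, no member passed in edgeR, against 0.839% of all genes called higher and 0.765% called lower. At an unadjusted p below 0.05 there were then 8 members, against 21.8% of all genes. The calls of the linkers and of Ank3 were lost, and their values dropped to -0.03 for Macf1, -0.12 for Dst and 0.09 for Ank3. The call of Map1b was lost as well, and its log2 fold change dropped to 0.32 from 0.66 (edgeR adjusted p = 0.071). Map2 had 0.38 (adjusted p = 0.11). On the lower side Tuba1b had -0.37, Stmn4 -0.34, Stmn3 -0.31 and Nefh -0.73. The median of the linkers, ankyrins and motors turned to -0.02 and that of the tubulins and stathmins was -0.12, so that the difference between them shrank to -0.09.

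**Figure D4:**
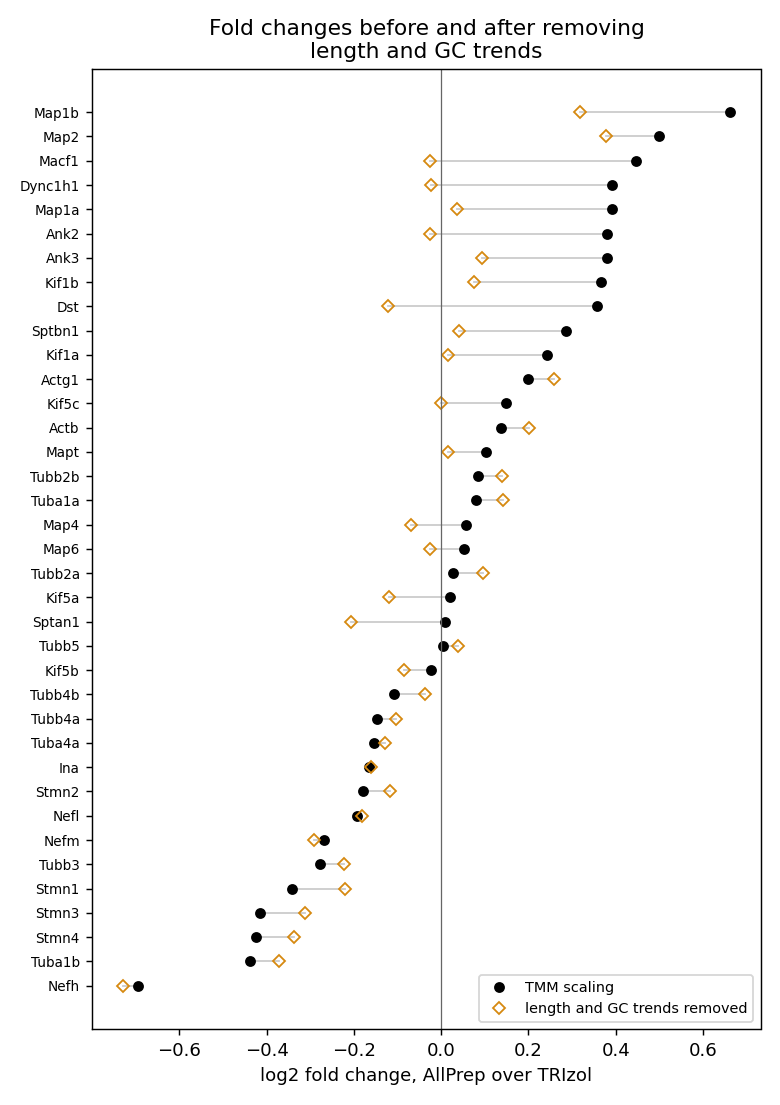
Log2 fold change of each member, AllPrep over TRIzol (x axis), with TMM scaling alone (filled circles) and with length and GC trends removed (open diamonds), genes ordered by the first value. Long genes such as Dst, Macf1, Ank2 and Dync1h1 move to near or below zero, while Map1b, Map2, Tuba1b, the stathmins and Nefh stay on their side.

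Levels of different genes can be set side by side only per length, here as CPM per kb of the longest transcript, which need not be the transcript in use. On that scale Kif5a had 519 ± 43.9 CPM per kb in AllPrep and 524 ± 24.1 in TRIzol (SD, n = 3 each). Actb had 416 ± 13.4 in AllPrep and 388 ± 42.3 in TRIzol, and Stmn1 had 347 ± 29.3 in AllPrep and 451 ± 95.9 in TRIzol. Tubb4a had 330 ± 33.7 CPM per kb in AllPrep and 375 ± 26.9 in TRIzol. These were the 4 highest members in AllPrep, and Stmn1 and Tubb4a do not differ beyond their spread in either group. The linkers were among the lowest, with 26.3 ± 1.65 CPM per kb in AllPrep and 19.8 ± 0.868 in TRIzol for Macf1. Dst had 25.2 ± 0.80 in AllPrep and 20.2 ± 0.518 in TRIzol. Stmn3 had a higher level per kb than Map2 in TRIzol, with 340 ± 36.7 against 187 ± 19.1, but in AllPrep 249 ± 7.21 and 258 ± 30.3 could not be told apart.

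Other cytoskeleton genes were read from 6 lists with 109 genes, all tested, of which 6 passed, or 5.5%, against 3.8% of all genes tested. Without AllPrep replicate 1, 2 or 3 or TRIzol replicate 2 none of them passed, without TRIzol replicate 1 there was 1 and without TRIzol replicate 3 there were 2. DESeq2 called 14 of them, or 12.8%, against 13.4% of all genes in that test. Among 19 genes of the spectrin skeleton and linkers 3 rose (median log2 fold change 0.18). They were Nav1 and Nav3, neuron navigators that bind microtubule plus ends, with 1.54-fold and 1.39-fold differences, and Syne1, the giant nesprin-1 that links the nucleus to actin, with 1.35-fold (edgeR adjusted p = 0.031, 0.048 and 0.048). Among 19 genes of microtubule ends, severing and tubulin modification 1 rose, Fign, the severing enzyme fidgetin, with 10.4 ± 0.953 CPM in AllPrep against 5.72 ± 1.19 CPM in TRIzol (edgeR adjusted p = 0.038), while Ttll7, a polyglutamylase of beta-tubulin, had a log2 fold change of 0.10. Among 11 other tubulins and tubulin cofactors 1 fell, Tbce, a chaperone that folds alpha-tubulin, with 36.5 ± 0.806 CPM in AllPrep and 55.4 ± 5.84 CPM in TRIzol (edgeR adjusted p = 0.028). The cofactor Tbcd had -0.08. Tuba1c, the alpha-tubulin that shares windows with Tuba1a and Tuba1b, was chosen after its values were seen. It averaged 2.98 ± 0.355 CPM in AllPrep and 1.51 ± 0.343 CPM in TRIzol without overlap, the largest log2 fold change of the list at 1.01 (edgeR adjusted p = 0.053). The list's median was -0.17, and DESeq2 called 1 of its genes higher and 1 lower.

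Among 22 genes of actin dynamics 1 fell, Tmsb10, a thymosin that sequesters actin monomers, with 32.6 ± 2.11 CPM in AllPrep against 49.5 ± 4.20 CPM in TRIzol (edgeR adjusted p = 0.033). Myo5a, a myosin that carries vesicles along actin, averaged 803 ± 34.5 CPM in AllPrep and 607 ± 72.3 CPM in TRIzol and just missed the threshold (edgeR adjusted p = 0.054). Of 23 other kinesin, dynein and dynactin genes none passed in edgeR (5 at an unadjusted p below 0.05, and 1 in DESeq2), and the median was -0.09. Without overlap 1 was higher, Kif2a, and 10 were lower, against 13.4% and 20.6% of all genes. Of all genes, 13.4% were higher and 12.4% lower at an unadjusted p below 0.05, and DESeq2 called 13.4%. Kif2a, a kinesin that depolymerises microtubule ends, had 99.2 ± 4.74 CPM in AllPrep and 84.3 ± 1.82 CPM in TRIzol (edgeR adjusted p = 0.070). Dynll2, a light chain shared by dynein and myosin V, averaged 826 ± 38.6 CPM in AllPrep and 942 ± 23.8 CPM in TRIzol. Of 15 other microtubule-associated proteins none passed in edgeR (3 at an unadjusted p below 0.05, and 0 in DESeq2), against those same shares of all genes. Dclk1, a doublecortin-like kinase, and Map9 had log2 fold changes of 0.19 and 0.27.

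Total counts ran from 38552252 to 50937858 in AllPrep and from 36395330 to 44995120 in TRIzol libraries. Marker lists showed neurons at 6933 to 7643 CPM in AllPrep and 7471 to 8447 CPM in TRIzol, with 0 of 8 markers passing in edgeR (3 at an unadjusted p below 0.05, and 2 in DESeq2). Log2 fold changes of the neuron markers were positive for 4 and negative for 4. Astrocyte markers summed to 4085 to 4457 CPM in AllPrep and 3318 to 3866 CPM in TRIzol, and 1 of 7 passed. The marker that passed was Slc1a3 (log2 fold change 0.42, edgeR adjusted p = 0.037). Slc1a2, the most abundant astrocyte marker, averaged 3046 CPM in AllPrep and 2389 CPM in TRIzol and did not pass (edgeR adjusted p = 0.071). The astrocyte markers went both ways, with 4 positive and 3 negative log2 fold changes and a median of 0.03. Choroid plexus markers summed to 587 to 1181 CPM in AllPrep and 13.9 to 19.3 CPM in TRIzol, and all 7 passed. Ependymal markers, of which 3 of 6 passed, summed to 24.0 to 33.9 CPM in AllPrep and 7.80 to 16.7 CPM in TRIzol. Microglial markers summed to 279 to 297 CPM in AllPrep and 258 to 263 CPM in TRIzol. Endothelial markers summed to 215 to 241 CPM in AllPrep and 179 to 230.4 CPM in TRIzol. Erythroid markers took 8.91 to 13.2 CPM in AllPrep and 9.14 to 17.8 CPM in TRIzol. Of these lists 0 of 7, 0 of 6 and 0 of 3 tested genes passed in edgeR. At an unadjusted p below 0.05 these lists held 3, 2 and 0 genes, and DESeq2 called 2, 1 and 0. Of all genes tested, 3.8% passed in edgeR. At an unadjusted p below 0.05, 13.4% of all genes were higher and 12.4% lower, and DESeq2 called 13.4%. No matched marker was at 0 counts in all libraries. Their part in the values of the cytoskeleton genes was not tested.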

How the data were processed

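The authors deposited raw, whole-number counts per gene for 6 libraries. Per the labels' protocols, RNA was amplified by T7 transcription and read from both ends over 150 bases. FastQC 0.11.9, cutadapt, STAR 2.7.9a, featureCounts, limma 3.60.6 and build GRCm39 are named in the submitters' processing notes, without strand or multi-mapping settings. Of 22692 rows, 108 that repeated an Ensembl ID were removed. Of counts from 1 to 20, 64.2% to 70.9% were even, a pattern that counting both mates would give.

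The test was the two-sided quasi-likelihood F-test of edgeR 4.0.16 after filterByExpr and TMM, with no block, run in R 4.3.3 and checked on simulated data. The SE is the log2 fold change divided by the square root of F. Libraries of a method differed beyond sampling noise (lowest chi-square over its degrees of freedom 14.5). Length, GC and sequences came from GENCODE vM21 on GRCm38, and trends were fitted with mgcv 1.9.3. DESeq2 was 1.42.0. Members and lists were chosen with earlier results of these data known. Full values are given for members past the threshold, the most abundant of each class and the 2 largest and smallest fold changes, and others were chosen after their values were seen. Of other lists, genes past the threshold and those with the smallest p and highest CPM are named, except an item that is not reported here. The marker Hbb-bs was not matched.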

Additional observations from a re-analysis of the deposited data

How the results depend on the processing

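The 4 calls among members and the signs of all 37 were the same with DESeq2 size factors, no filter, a filter of 1 CPM in 3 libraries and halved counts. DESeq2 called 2095 genes (1275 higher, 820 lower), 13 members and 14 other cytoskeleton genes. Library size alone called 348 higher and 313 lower genes, against 412 and 209 with TMM, and added Stmn3 and Stmn4 as lower. It turned Tubb2a, Tubb5, Kif5a and Sptan1 to -0.0097, -0.032, -0.014 and -0.027. Deviations of same-numbered libraries had correlations of -0.048, 0.0063 and 0.16. The 2 libraries numbered 3 correlated best with each other, and those numbered 1 and 2 did not. The highest correlation, 0.20, was between AllPrep replicate 1 and TRIzol replicate 2. These values do not settle whether libraries were paired. With a replicate block there were 236 genes (195 higher, 41 lower), 1 member (Map1b) and 2 other cytoskeleton genes. Removing length and GC trends left 260 genes (136 higher, 124 lower), 0 members and 3 other cytoskeleton genes. It turned the median of linkers, ankyrins and motors to -0.024, shrank the class difference to -0.094, and turned Map4 to -0.069, Map6 to -0.025, Kif5a to -0.12, Kif5c to -0.0013, Dync1h1 to -0.023, Dst to -0.12, Macf1 to -0.026, Ank2 to -0.026 and Sptan1 to -0.21. The cause was not tested. Leaving out each library left 2 to 205 genes (2 to 137 higher, 0 to 68 lower), 0 to 1 members and 0 to 2 other cytoskeleton genes. In these fits the median of linkers, ankyrins and motors ranged from 0.29 to 0.38, Tubb2a from -0.11 to 0.094, Tubb2b from -0.043 to 0.15, Tubb5 from -0.061 to 0.085, Map4 from -0.010 to 0.14, Kif5a from -0.042 to 0.082, Kif5b from -0.082 to 0.056 and Sptan1 from -0.066 to 0.070. The mean over linkers, ankyrins and motors, chosen after seeing the data, was 0.27. A rule on protein identity was not run.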
